A study of Homo sapiens with 13 samples.

Results

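Chromatin occupied by GFP-tagged DNMT1 under a DNMT1 inhibitor was compared between cells whose tagged enzyme lacked the RFTS domain and cells that had lost UHRF1. MV4-11 cells, an established line from a human acute myeloid leukaemia, carried ectopic GFP-DNMT1 and a guide against DNMT1 (gDNMT1) in every group used here except the untreated parental cells, and the occupied sites were recovered by anti-GFP ChIP-seq. The RFTSdel group expressed the RFTS deletion mutant and had 2 libraries, and the UHRF1KO group expressed wild-type GFP-DNMT1 with UHRF1 knocked out by a guide RNA and had 1. Both were kept for 7 days in 100 nM GSK3685032 (DNMT1i). Comparators were the same lines in DMSO, wild-type GFP-DNMT1 without a second guide (WT) or with a non-targeting guide (NTC, the control for UHRF1KO) in DMSO or DNMT1i, and parental cells without GFP. The sample labels place WT, RFTSdel and parental in batch 1 and NTC and UHRF1KO in batch 2, so the construct and the batch cannot be told apart in a direct comparison of RFTSdel with UHRF1KO. Peaks on chromosomes 1 to 22 and X that overlapped no parental peak were merged over the 3 DNMT1i libraries into 13802 regions, of 48763 regions in all 10 GFP-DNMT1 libraries. Of these, 4191 regions (30.4%) were called in both RFTSdel replicates and not in UHRF1KO and are termed RFTSdel-only. Another 1493 (10.8%) were called in UHRF1KO and in neither RFTSdel replicate and are termed UHRF1KO-only. The shared regions, called in all 3 libraries, numbered 2121 (15.4%). The rest were called in 1 RFTSdel replicate alone (4995 regions, 36.2%) or with UHRF1KO (1002 regions, 7.26%) and were not counted for either line.

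DNMT1 is the maintenance methyltransferase that restores CpG methylation on the new strand after replication. UHRF1 binds hemimethylated CpG sites through its SRA domain and ubiquitinates histone H3, and the RFTS domain of DNMT1 reads that ubiquitin mark and also folds over the catalytic site to restrain the enzyme. GSK3685032 is a reversible inhibitor that is selective for DNMT1. CpG islands, the CpG-dense stretches at many promoters, are mostly unmethylated in normal cells.

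Promoter sequence is shown for 4 genes to set the DNA under the strongest calls of each class beside the values. They are the first RFTSdel-only, the first UHRF1KO-only and the first 2 shared regions, in order of strength, that overlapped the window of 250 bases before the start of a protein-coding gene. The sequences are from RefSeq (GRCh38.p14), read 5′ to 3′ on the gene's strand, with each CpG in capitals. OXTR encodes the oxytocin receptor (chr3:8769615-8769864, minus strand), PAFAH2 an acetylhydrolase of platelet-activating factor (chr1:25998065-25998314, minus), EEF1A1 a translation elongation factor (chr6:73521034-73521283, minus) and BCL7C a subunit of SWI/SNF remodelling complexes (chr16:30894079-30894328, minus).
OXTR: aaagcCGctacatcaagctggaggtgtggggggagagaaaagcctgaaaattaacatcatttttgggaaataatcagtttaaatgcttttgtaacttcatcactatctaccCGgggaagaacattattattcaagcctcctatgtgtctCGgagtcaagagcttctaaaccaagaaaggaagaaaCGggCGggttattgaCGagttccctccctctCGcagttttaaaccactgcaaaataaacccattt
PAFAH2: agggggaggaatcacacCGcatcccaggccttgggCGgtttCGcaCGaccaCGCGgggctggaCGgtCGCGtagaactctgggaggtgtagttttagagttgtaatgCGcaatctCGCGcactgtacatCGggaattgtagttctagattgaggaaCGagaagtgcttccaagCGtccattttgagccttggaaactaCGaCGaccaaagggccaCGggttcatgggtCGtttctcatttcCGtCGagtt
EEF1A1: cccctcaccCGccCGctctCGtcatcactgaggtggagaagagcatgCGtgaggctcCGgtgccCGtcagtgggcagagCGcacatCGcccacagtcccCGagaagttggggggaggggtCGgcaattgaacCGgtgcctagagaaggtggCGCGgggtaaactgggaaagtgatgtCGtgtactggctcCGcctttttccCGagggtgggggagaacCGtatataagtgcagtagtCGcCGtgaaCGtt
BCL7C: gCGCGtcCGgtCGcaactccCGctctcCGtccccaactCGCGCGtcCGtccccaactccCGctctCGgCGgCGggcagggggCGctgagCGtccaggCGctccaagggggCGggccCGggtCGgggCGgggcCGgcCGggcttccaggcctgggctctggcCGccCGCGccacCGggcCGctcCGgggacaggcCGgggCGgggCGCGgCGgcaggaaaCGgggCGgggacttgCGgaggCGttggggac
The OXTR window held 7 CpG sites at 42.0% GC. PAFAH2 held 21 at 54.4% GC, EEF1A1 20 at 61.6% and BCL7C 38 at 80.8%. The strongest RFTSdel-only promoter was therefore the CpG-poorest of the 4, which is a description of single loci.

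Each list gives, for every peak, the authors' fold enrichment and −log10 q. These values rank peaks within a list. Their scale can differ between lists, so values of 1 region in several lists are given side by side, and a fixed −log10 q threshold need not be equally strict in each list. After the parental peaks were removed the RFTSdel replicates held 7559 and 11138 peaks, covering 5.21 and 8.52 Mb, and UHRF1KO held 4640, covering 2.77 Mb. The removed peaks numbered 299, 354 and 400. Median widths were 560 and 621 bp in RFTSdel and 435 bp in UHRF1KO. Sequencing depth is unknown, the labels do not state separate cultures for the RFTSdel pair, and the single UHRF1KO library has no replicate check. No expression was measured, so the line's identity, the loss of endogenous DNMT1 and the loss of UHRF1 were not checked here.

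The RFTSdel lists were longer, and RFTSdel peaks overlapped UHRF1KO peaks less often than the reverse, an order that turned when the lists were cut to equal length. Of the 4640 UHRF1KO peaks, 44.7% (95% Wilson interval 43.3 to 46.1) overlapped a peak called in both RFTSdel replicates by at least 1 bp. Of the 6347 RFTSdel peaks called in both replicates, 32.6% (31.5 to 33.8) overlapped a UHRF1KO peak. With lists of equal length the shares were 23.4% and 36.6%. Between the RFTSdel replicates the shares were 84.0% of replicate 1 and 56.7% of replicate 2. The share of UHRF1KO peaks found in the list was 49.1% for replicate 1 and 63.3% for replicate 2, so the replicates differed by more than the counting intervals. All intervals in this account cover counting error only. Within batch, 41.7% of UHRF1KO peaks overlapped NTC DNMT1i peaks, and 13.7% and 13.8% of RFTSdel peaks overlapped WT DNMT1i peaks. The NTC DNMT1i list held 5840 peaks and the WT DNMT1i list 4254, and an overlap share follows the length of the list searched.

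The excess of RFTSdel-only regions turned when the lists were cut to equal length, and the cause of this was not tested. At any length, an RFTSdel-only region needs calls in 2 libraries and a UHRF1KO-only region a call in 1. When each list was cut to its 4640 strongest peaks, 1845 regions were RFTSdel-only, 2680 UHRF1KO-only and 1090 shared. With replicate 1 alone for RFTSdel the counts were 5284 and 2364, and with replicate 2 alone 8216 and 1704, so the direction held with either replicate. The RFTSdel-only count without replicate 1 and the UHRF1KO-only count without replicate 2 moved by more than 1.5 times. Replicate 2 contributed 3989 of the 4995 regions called in 1 RFTSdel replicate alone, and replicate 1 the other 1006. The regions just inside and just outside the requirement of both replicates overlapped in strength. The lower −log10 q of the replicates had a median of 2.24 (quartiles 1.68 to 3.07) in RFTSdel-only regions, and the −log10 q of regions in 1 replicate alone had a median of 1.90 (1.47 to 2.58).

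RFTSdel-only regions lay mostly at gene ends and UHRF1KO-only regions mostly did not, but the first class needs calls in 2 libraries and the second rests on 1. A gene end here is the window of 1 kb around either end of a protein-coding gene, since the annotation used gives no exons. In the RFTSdel-only class 3046 regions, 72.7% (71.3 to 74.0), lay at a gene end, against 519, 34.8% (32.4 to 37.2), of the UHRF1KO-only class and 76.6% (74.8 to 78.4) of the shared class. Where the gene's strand was known (chromosome 8 and genes with no promoter entry were not used here), 96.3% of the RFTSdel-only, 90.2% of the UHRF1KO-only and 96.6% of the shared regions at a gene end lay at the start rather than only at the other end. UHRF1KO-only regions were instead inside protein-coding genes in 35.5% (33.1 to 38.0), against 16.4% of RFTSdel-only regions. They were outside every annotated gene in 17.7% (15.8 to 19.7), against 6.13% (5.45 to 6.90). The median distance from the centre of a region to the nearest protein-coding gene end was 341 bp for RFTSdel-only, 4956 bp for UHRF1KO-only and 334 bp for shared regions. UHRF1KO-only regions were also shorter, with a median of 387 bp against 832 and 1076 bp. Regions called in 1 RFTSdel replicate alone, which likewise rest on 1 library, were nearer to UHRF1KO-only in these measures. They lay at gene ends in 50.1% (48.7 to 51.4) and outside genes in 14.0% (13.1 to 15.0), with a median width of 433 bp and a median distance of 1260 bp.

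The contrast in gene-end share turned when only peaks at −log10 q 4 or more were kept. Over whole lists the gene-end share was 66.6% ± 1.78 (SD, n = 2) in RFTSdel and 58.7% (57.3 to 60.1) in UHRF1KO, a difference of 7.87 percentage points. The control libraries of the same batches were at 44.5% (WT DNMT1i) and 45.9% (NTC DNMT1i), so both perturbed lines lay above their own batch's control. When only peaks reaching −log10 q 4 were kept, the difference between the lists turned to −9.08 points. The classes were then formed anew, so a UHRF1KO-only region could hold RFTSdel peaks under 4. Of these, 65.2% of RFTSdel-only and 73.9% of UHRF1KO-only regions lay at gene ends, and with lists of equal length 71.8% and 47.3% did. In the original classes, 59.9% of the 469 RFTSdel-only regions at 4 or more in both replicates lay at gene ends. The share was 63.8% of the 58 UHRF1KO-only regions at 4 or more. At 10 or more the counts were 11 of 47 and 0 of 2. Without replicate 2 the share of UHRF1KO-only regions was 46.3%. These settings for the class shares were chosen after the values were seen.

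The RFTSdel-only regions were DNMT1 sites of most DMSO libraries. Of the 4191, 86.5% (85.5 to 87.5) were called in UHRF1KO under DMSO, 87.2% in NTC and 80.6% in WT under DMSO, and 86.9% ± 0.742 (SD, n = 2) in RFTSdel under DMSO. All 5 DMSO libraries called 68.5% of them. After DNMT1i, WT called 6.80% (6.08 to 7.60) and NTC 11.6% (10.7 to 12.6). Regions called in 1 RFTSdel replicate alone were called in UHRF1KO DMSO in 54.0% and, after DNMT1i, in WT in 12.5% and NTC in 15.9%. The RFTSdel-only class therefore consisted largely of sites called with every construct in DMSO, and in DNMT1i in the RFTSdel lists. Calls were made in none of the other 7 libraries at 66 regions (1.57%). With all lists held to −log10 q 4 and the classes formed anew, the share of RFTSdel-only regions in UHRF1KO DMSO was 44.9%. In the original class, 469 regions reached 4 in both replicates, and the full UHRF1KO DMSO list called 414 of them.

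UHRF1KO-only regions were called less often in DMSO, and NTC and WT called similar shares of them in DMSO and DNMT1i. Under DMSO, 38.2% (35.7 to 40.7) were called in UHRF1KO itself, 39.3% in NTC, 33.1% in WT and 21.2% ± 3.69 (SD, n = 2) in RFTSdel. After DNMT1i, NTC called 39.9% (37.4 to 42.4) and WT 32.8% (30.4 to 35.2). With all lists held to −log10 q 4 and the classes formed anew, the mean share in RFTSdel DMSO was 67.9%. Without replicate 2 for RFTSdel DNMT1i it was 32.9%. In the original class, 58 regions reached 4, and both full RFTSdel DMSO lists called 28 of them. No DMSO library called 43.1% of them, against 3.94% of RFTSdel-only regions. None of the other 7 libraries called 306 regions (20.5%), close to the 20.9% of the regions called in 1 RFTSdel replicate alone, which likewise rest on a single library. The lists differ in length, from 4254 peaks in WT DNMT1i to 32523 in UHRF1KO DMSO, and these shares follow the length of the list that is searched as well as its content.

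Shared regions were near the RFTSdel-only class in DMSO. After DNMT1i they were called in NTC as often as UHRF1KO-only regions, and in WT at a share between those of the other classes. They were called in 84.8% in UHRF1KO DMSO, 89.0% in NTC DMSO, 85.5% in WT DMSO and 79.8% ± 0.533 (SD, n = 2) in RFTSdel DMSO. After DNMT1i, 39.9% were called in NTC and 24.1% in WT. Only 9 shared regions (0.424%) were called in none of the other 7 libraries.

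The strongest RFTSdel-only regions formed a different set from the bulk of the class. In 47 of them both replicates reached a −log10 q of at least 10, and 11 of the 47 lay at a gene end. Both RFTSdel DMSO libraries called 43 of the 47, UHRF1KO DMSO 34, and no library of another line 9. Only 6 shared regions reached 10 in both RFTSdel replicates, and 2 UHRF1KO-only regions reached it in UHRF1KO.

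GRAMD1A, which encodes a sterol transfer protein, held the region with the highest value in replicate 1 (chr19:35011914-35014591, inside the gene). The −log10 q was 60.7 and 55.2 in RFTSdel DNMT1i, 6.44 and 4.10 in RFTSdel DMSO, 3.02 in UHRF1KO DMSO, 1.49 in NTC DMSO and 2.22 in WT DMSO, with no peak in UHRF1KO, NTC or WT after DNMT1i. ZBTB46, a zinc finger transcription factor of classical dendritic cells, had the same form (chr20:63795144-63796710, inside the gene). It had 36.7 and 53.9 in RFTSdel DNMT1i, 7.52 and 6.69 in RFTSdel DMSO and 4.28 in UHRF1KO DMSO. For reference, the median peak was at 2.37 and 2.59 in the RFTSdel DNMT1i lists and at 4.36 and 4.31 in the RFTSdel DMSO lists, so both regions stood far above the median with DNMT1i and close to it in DMSO.

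At the other regions of these 10, the values in the RFTSdel DMSO lists also stood far above the median of those lists. DNAH8, an axonemal dynein heavy chain gene, had 44.8 and 48.1 in RFTSdel DNMT1i and 58.1 and 37.5 in RFTSdel DMSO at one gene end (chr6:39029241-39030409), and no peak in any other line. SEZ6L (chr22:26366749-26368030, inside the gene) had 29.7 and 33.4 with DNMT1i and 22.5 and 37.1 in DMSO, and again none in any other line. A site 419 bp from the defensin pseudogene DEFA9P (chr8:6958007-6958870) had 43.0 and 56.4 with DNMT1i and 30.4 and 44.9 in DMSO, and none elsewhere. These 3 regions were called in all 4 RFTSdel libraries and in none of the 6 libraries with wild-type GFP-DNMT1.

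OXTR, whose promoter is printed above, had 39.2 and 40.2 in RFTSdel DNMT1i and 39.1 and 24.5 in RFTSdel DMSO. Its values were 2.02 in UHRF1KO DMSO and 2.65 in NTC DMSO, with no peak in either WT library. SRCIN1, a regulator of SRC kinase signalling, had 34.6 and 46.9 with DNMT1i, 47.1 and 70.6 in RFTSdel DMSO, 4.85 in UHRF1KO DMSO and 3.40 in WT DMSO. The remaining 3 of the 10 lay outside genes, 73489 bp from LINC01163, 12819 bp from TCF23 and 9635 bp from LOC124904384. The longest RFTSdel-only regions were weak by comparison: IER5L (4598 bp), WNT11, a secreted WNT ligand (4206 bp), and PDGFA, a platelet-derived growth factor (3971 bp), had −log10 q between 1.64 and 3.74 in the RFTSdel DNMT1i lists. WNT11 was also called after DNMT1i in NTC (1.68) and WT (1.74).

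By the median −log10 q, regions of both one-line classes were weaker than shared regions in the same list. The median −log10 q in the UHRF1KO list was 1.74 for UHRF1KO-only and 2.06 for shared regions. In the RFTSdel lists it was 2.50 and 3.19 for RFTSdel-only and 2.70 and 3.42 for shared regions. Among the strongest RFTSdel regions the order was the other way, with 47 RFTSdel-only and 6 shared regions at 10 or more in both replicates. The strongest UHRF1KO-only region, at 10.5, lay outside genes, 19477 bp from LOC105378144 (chr6:168839936-168841345). It was also called in NTC DNMT1i (12.4) and WT DNMT1i (15.3) and in no RFTSdel library. A region over PNKD and TMBIM1 on chromosome 2 had 10.0 in UHRF1KO DNMT1i, 1.78 in UHRF1KO DMSO and 3.58 in NTC DNMT1i. It was called in both RFTSdel DMSO libraries, at 2.22 and 7.36.

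Several UHRF1KO-only gene ends had a peak in both RFTSdel libraries in DMSO and lacked it in DNMT1i. PAFAH2, printed above, had 8.20 in UHRF1KO DNMT1i and 7.33 in UHRF1KO DMSO, with 8.43 and 3.29 in RFTSdel DMSO and no peak in RFTSdel DNMT1i. PEX19, which imports peroxisomal membrane proteins, had 7.82 and 5.72 in UHRF1KO and 9.62 and 11.1 in RFTSdel DMSO. COA6, a cytochrome c oxidase assembly factor, had 7.12 and 8.35 in UHRF1KO and 7.21 and 10.5 in RFTSdel DMSO. These 3 genes also had a peak in NTC DNMT1i (4.32, 4.30 and 3.48) and none in WT DNMT1i. LOC124901473 on chromosome 6 was called at 9.42 in UHRF1KO DNMT1i and in no other library. ZSCAN30 on chromosome 18, a zinc finger gene, had 6.79 in UHRF1KO DNMT1i, 2.33 in NTC DNMT1i and 2.11 in WT DNMT1i and no peak in RFTSdel. The longest UHRF1KO-only region, 3049 bp inside ARHGAP39, had 2.72 and was likewise called in NTC DNMT1i (4.32) and WT DNMT1i (5.73).

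Across the ordered lists the share of regions called in the other line was larger in stronger bins, but not among the strongest RFTSdel regions. Among RFTSdel regions it was 29.2% (27.0 to 31.5) in the weakest 25% and 41.4% (37.6 to 45.2) in the strongest 10%. Among UHRF1KO regions, 38.0% (35.3 to 40.9) of the weakest 25% and 60.8% (56.3 to 65.2) of the strongest 10% were called in both RFTSdel replicates. Of the RFTSdel regions at 10 or more in both replicates, 47 were RFTSdel-only and 6 shared, and at 20 or more 18 and 3. Across the 2121 shared regions, Spearman's rho of −log10 q was 0.54 between the RFTSdel replicates and 0.11 and 0.14 between each of them and UHRF1KO. These correlations are across regions, which are not independent, and the RFTSdel libraries share a batch.

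By the mean of its ranks in the 3 lists, EEF1A1 came first among shared regions, with −log10 q of 29.4 and 30.3 in RFTSdel DNMT1i and 5.53 in UHRF1KO DNMT1i. It was called in all 10 libraries, at 10.6 in WT DNMT1i and 4.37 in NTC DNMT1i. BCL7C had 11.3, 10.8 and 6.17 in the 3 libraries, and was called in all 5 DMSO libraries but in neither wild-type line after DNMT1i. TBC1D20, ZNF341, EXTL3 and ENOSF1 had that same pattern of calls. SKIL, an inhibitor of SMAD signalling, had 7.62, 7.79 and 6.71, and NBN, a subunit of the MRN complex for double-strand break repair, 6.79, 9.03 and 5.12. The longest shared region spanned 10531 bp at SRGN, the serglycin proteoglycan gene of haematopoietic cells, the next 8532 bp at LOC124905135 and LINC02939, and the next 8063 bp at GFI1, a transcriptional repressor of myeloid differentiation. Their −log10 q was 2.14, 2.60 and 3.78 at SRGN and 3.0, 2.67 and 3.21 at GFI1.

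UHRF1KO-only regions were more often on chromosome 19, which carries most of the clustered zinc finger genes. That chromosome held 171 of them, 11.5% (9.94 to 13.2), against 272 RFTSdel-only regions, 6.49% (5.78 to 7.28), and 8.72% (7.59 to 10.00) of shared regions. On chromosome 19, 35 of the 171 UHRF1KO-only regions, 20.5% (15.1 to 27.1), lay in a ZNF gene, against 12 of the 272 RFTSdel-only regions, 4.41% (2.54 to 7.55). Away from chromosome 19 the shares were 1.36% and 1.22%. Whole lists were closer: chromosome 19 held 7.13% and 7.78% of RFTSdel and 10.1% of UHRF1KO peaks, with 9.14% in WT and 9.20% in NTC DNMT1i. ZNF genes on all chromosomes held 1.76% and 2.07% of RFTSdel and 3.15% of UHRF1KO peaks. The wild-type lists were near UHRF1KO in this, at 3.13% in WT and 2.88% in NTC DNMT1i.

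By gene, 3424 of 19974 protein-coding genes (17.1%) had a gene-end peak in both RFTSdel replicates and not in UHRF1KO, 512 (2.56%) in UHRF1KO alone and 1873 (9.38%) in all 3 libraries. The RFTSdel replicates marked 29.2% and 41.4% of genes and UHRF1KO 15.8%. With lists of equal length 1489 genes were RFTSdel-only and 1391 UHRF1KO-only. Without replicate 2 the UHRF1KO-only genes numbered 1178, and without replicate 1 the RFTSdel-only genes numbered 5722. Of 18 gene lists, UHRF1KO marked fewer members than either RFTSdel replicate in 11, a number between the replicates in 5, the number of 1 replicate in 1 and more than either in 1. The counts below are set beside those of all protein-coding genes and carry no test.

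Genes of DNA methylation had RFTSdel-only and UHRF1KO-only shares near those of all genes, and fewer of them had no peak. Of 25 members, 5 (20.0%) were RFTSdel-only against 17.1% of all genes. Another 5 (20.0%, 8.86 to 39.1) were shared against 9.38%, and none was UHRF1KO-only against 2.56%. A further 8 were called in 1 RFTSdel replicate alone, a class that held 13.6% of all genes. No peak was called at 7, against 53.4% of all genes. UHRF1KO marked 5 (20.0%, against 15.8% of all genes). The RFTSdel replicates marked 11 and 17 (44.0% and 68.0%, against 29.2% and 41.4%). The de novo methyltransferase gene DNMT3A was RFTSdel-only (3.80 and 4.50), and so were TET3, a 5-methylcytosine oxidase gene (3.81 and 2.81), MBD2, a methyl-CpG reader gene (3.79 and 5.59), and USP7, a deubiquitinase gene whose product binds DNMT1 and UHRF1 (4.97 and 1.98). All 4 were also called in UHRF1KO and NTC DMSO. DNMT3B (7.81, 4.90 and 1.70), the sliding clamp gene PCNA (4.91, 6.17 and 3.07), and UHRF2, the UHRF1 paralogue (1.68, 2.09 and 3.78), were shared. DNMT1 itself was shared, at 3.87 and 5.97 in RFTSdel and 3.02 in UHRF1KO. Whether reads from the ectopic DNMT1 construct reach that gene was not tested. UHRF1 had 2 peaks inside the gene in each RFTSdel DNMT1i replicate, the stronger at 6.21 and 10.0, and none after DNMT1i in UHRF1KO, NTC or WT, while UHRF1KO DMSO had 4.

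Genes of H3K9 methylation and the SUMO pathway gave similar counts. Of 26 heterochromatin genes 7 (26.9%) were RFTSdel-only, 1 (3.85%) UHRF1KO-only and 4 (15.4%) shared. The shares of all genes were 17.1%, 2.56% and 9.38%, inside the counting intervals of these 3. MPHOSPH8 and TASOR, subunits of the HUSH silencing complex, had 4.28 and 3.36, and 2.49 and 3.66, in the RFTSdel replicates, and MORC2, a HUSH cofactor, was shared. The nucleosome remodeller gene SMARCAD1 was the UHRF1KO-only member, at 2.39. Of 29 SUMO genes 5 (17.2%) were RFTSdel-only, among them PIAS4, a SUMO ligase gene (3.18 and 5.51), and RNF4, a SUMO-targeted ubiquitin ligase gene (2.32 and 1.81). The 7 shared SUMO genes (24.1%, 12.2 to 42.1, against 9.38% of all genes) included SUMO2 and SUMO3, and none was UHRF1KO-only.

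DNA replication genes were rarely called in all 3 libraries. Of 59 members, 14 (23.7%) were RFTSdel-only, 1 (MCM8, at 2.11) UHRF1KO-only and 1 (PCNA) shared. The shares of all genes were 17.1%, 2.56% and 9.38%. Another 5 members were called in UHRF1KO and 1 RFTSdel replicate, a class that held 3.90% of all genes. UHRF1KO marked 7 (11.9%, against 15.8% of all genes), and the RFTSdel replicates 19 and 34 (32.2% and 57.6%, against 29.2% and 41.4%). The UHRF1KO DMSO library marked 79.7% of the list and 53.8% of all genes. RECQL4, a helicase gene, had 4.08 and 8.66, and CHAF1A, the large subunit of chromatin assembly factor 1, had 4.97 and 3.58. Replication-dependent histone genes were marked in 9 and 21 of 69 in RFTSdel and in 2 in UHRF1KO, with 8 RFTSdel-only and none shared.

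Interferon and viral sensing genes had no peak in the 3 libraries in 32 cases, and 53.4% of all genes had none. Of 53 members, 8 (15.1%) were RFTSdel-only, near the 17.1% of all genes. UHRF1KO-only was 1 (1.89%, against 2.56% of all genes), and 3 (5.66%, against 9.38%) were shared. IRF1, an interferon regulatory transcription factor gene, had 3.27 and 3.0 in RFTSdel DNMT1i. IFITM1, an antiviral membrane protein gene, had 3.27 and 5.45 with DNMT1i and no peak in either RFTSdel DMSO library. The neighbours CMPK2 and RSAD2, which rest on the same peaks, were shared at 3.10, 6.64 and 1.79. BST2, the tetherin gene, was UHRF1KO-only at 1.80.

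Myeloid and leukaemia genes had a shared share above that of all genes. Of 45 members, 10 (22.2%, 12.5 to 36.3) were shared, against 9.38% of all genes, 9 (20.0%) were RFTSdel-only and none UHRF1KO-only, near the 17.1% and 2.56% of all genes, and 21 had no peak in the 3 libraries. The receptor tyrosine kinase gene FLT3 had 6.16 and 11.6 in RFTSdel and 3.11 in UHRF1KO. CEBPA, a master regulator of granulocytes, had 5.71, 6.08 and 3.0, and MEN1, the scaffold gene menin, 4.29, 3.26 and 4.03. CEBPB (3.10 and 3.22) and PBX3, a HOX cofactor (3.65 and 3.87), were RFTSdel-only. In the lymphoid and erythroid list, which stands for other blood lineages, 4 of 36 (11.1%) were RFTSdel-only, 2 (5.56%) UHRF1KO-only and none shared. EBF1, a B cell factor, had 3.50 and 5.24 in RFTSdel DNMT1i and none in RFTSdel DMSO.

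Germline genes were marked less often than all genes in RFTSdel and at a similar share in UHRF1KO. The RFTSdel replicates marked 12.5% and 23.2% of them, against 29.2% and 41.4% of all genes. UHRF1KO marked 14.3% against 15.8%. The germline genes called in UHRF1KO alone were also called in NTC under DNMT1i. Of 56 germline genes 6 (10.7%) were RFTSdel-only, 3 (5.36%) UHRF1KO-only and 1 (1.79%) shared, against 17.1%, 2.56% and 9.38% of all genes. Another 4 were called in UHRF1KO and 1 RFTSdel replicate. PIWIL1, a piRNA pathway gene, had 1.92 in UHRF1KO, 3.36 in NTC and 3.87 in WT DNMT1i, and MEIOC, a meiosis gene, 1.82, 1.87 and 3.32. Neither had a peak in any RFTSdel library. Of 43 imprinted genes 9 (20.9%) were RFTSdel-only, 2 (4.65%) UHRF1KO-only and 5 (11.6%) shared. PHLDA2 (3.53 and 5.19), GRB10 (5.67 and 3.20) and CDKN1C (3.0 and 4.29), which restrain growth, were RFTSdel-only, and PEG3 was shared at 1.36, 1.51 and 1.49.

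Developmental regulators outside the HOX clusters had a UHRF1KO-only share above that of all genes. Of 141 members, 12 (8.51%, 4.94 to 14.3) were UHRF1KO-only against 2.56% of all genes, 20 (14.2%) RFTSdel-only and 22 (15.6%) shared. UHRF1KO marked 53 members (37.6%), as many as RFTSdel replicate 1, and replicate 2 marked 75. The wild-type lines marked more under DNMT1i, 95 (67.4%) in NTC and 82 (58.2%) in WT. Of all genes, NTC DNMT1i marked 14.6%, WT DNMT1i 9.98% and UHRF1KO DNMT1i 15.8%. UHRF1KO DMSO marked 35.5% of the list. FOXC2, a forkhead factor gene, had 2.71 in UHRF1KO, 4.81 in NTC DNMT1i and 2.20 in WT DNMT1i, and SOX1, a neural factor gene, 2.26, 2.81 and 2.79. Neither had a peak in RFTSdel. TBX3, a T-box factor gene, was RFTSdel-only (7.29 and 4.64), and CDX2, a caudal homeobox gene, was shared (4.80, 6.29 and 3.16) and called in all 10 libraries. HOX cluster genes were RFTSdel-only in 4 (10.3%, against 17.1% of all genes) and shared in 4 (10.3%, against 9.38%) of 39. HOXA9 (1.99, 2.52 and 2.63) and HOXA10 (1.42, 2.29 and 3.05), which are highly expressed in many acute myeloid leukaemias, were among the shared.

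Zinc finger, ribosomal protein and oxidative phosphorylation genes were the larger lists in which UHRF1KO lay between the RFTSdel replicates. Of 509 ZNF genes, 39 (7.66%, 5.66 to 10.3) were UHRF1KO-only, 46 (9.04%) RFTSdel-only and 43 shared, and UHRF1KO marked 112 against 97 and 179. ZNF414 had 4.54 in UHRF1KO DNMT1i and no peak in RFTSdel DNMT1i, although RFTSdel DMSO had 18.6 and 22.8. Of 81 ribosomal protein genes 9 (11.1%, 5.96 to 19.8) were UHRF1KO-only, 5 RFTSdel-only and 6 shared, and UHRF1KO marked 21 against 12 and 32. RPS28 (2.53) and RPL29 (2.44) were UHRF1KO-only and RPS15 (7.80 and 4.26) RFTSdel-only. Of 107 oxidative phosphorylation genes 7 (6.54%, 3.20 to 12.9) were UHRF1KO-only, 11 (10.3%) RFTSdel-only and 9 (8.41%) shared. Among all genes the shares were 2.56% UHRF1KO-only, 17.1% RFTSdel-only and 9.38% shared.

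Clustered protocadherin genes had no gene-end peak in RFTSdel replicate 1 and 22 of 53 (41.5%) in replicate 2, with 2 (3.77%) in UHRF1KO. The shares of all genes were 29.2%, 41.4% and 15.8%. Members of a cluster can rest on the same peak, and the separate peaks behind the 22 were not counted. Potassium channel genes were RFTSdel-only in 15 (15.8%), UHRF1KO-only in 2 and shared in 12 of 95, near the shares of all genes. They were marked in 31 and 35 in the RFTSdel replicates and in 18 in UHRF1KO. KCNB2, a voltage-gated channel gene, was shared at 2.17, 2.13 and 1.69. Of 392 olfactory receptor genes, 1 was UHRF1KO-only and 1 shared (0.255% each, against 2.56% and 9.38% of all genes).

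Promoters of the UHRF1KO-only class held less CpG than those of the RFTSdel-only and shared classes, and about as much as those called in 1 RFTSdel replicate alone. The RefSeq windows of 300 bases, from 250 before to 50 after the start, covered 15812 protein-coding genes. The median ratio of observed to expected CpG was 0.884 (quartiles 0.781 to 0.971) in 2710 RFTSdel-only promoters with a peak within 1 kb of the start. It was 0.824 (0.698 to 0.945) in 394 UHRF1KO-only, 0.912 (0.807 to 0.998) in 1415 shared and 0.491 (0.215 to 0.798) in 8525 promoters without a peak. Median GC was 71.0%, 63.7%, 71.3% and 57.0%. A ratio under 0.6 was found in 6.49% of RFTSdel-only, 13.7% of UHRF1KO-only and 34.2% of all promoters. The promoters called in 1 RFTSdel replicate alone had a median ratio of 0.843 and a median GC of 66.3%, with 11.1% under 0.6. The quartile ranges of these marked classes overlapped.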

How the data were processed

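Per the labels' protocols, chromatin was crosslinked with DSG and formaldehyde and immunoprecipitated with an anti-GFP antibody. The submitters' processing notes name cutadapt, BWA, Picard, MACS2, deepTools and GRCh38. For versions, settings and the control library of the peak calls, the sources used here give nothing. The authors called peaks in each library separately (11 lists), and each deposited list gives a fold enrichment (a linear ratio) and a −log10 q per peak. The lowest −log10 q in a list corresponds to a q cutoff near 0.1. Depth is unknown, and the 2 inputs were not used here. The series design text numbers the batches the other way round from the sample labels, with the same division of samples.

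Peaks on chromosomes 1 to 22 and X were kept unless they overlapped a parental peak by 1 bp, and were merged into regions. Genes were RefSeq GRCh38.p14 (19974 protein-coding, 15812 of them with a promoter window of 300 bases). That table gives no exons. No test was run, since UHRF1KO has 1 library and the lines differ in batch. Intervals are 95% Wilson intervals. The members and gene lists were chosen with earlier results of these data known. The text names the 10 strongest regions of each class (some by nearest gene), the 3 longest and 3 farthest from genes, and up to 4 members of each list per class in order of −log10 q, and gives values for part of these. DNMT1 and UHRF1 are given in any case.

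Alternatives were stricter −log10 q (2 or 4) and fold (4) thresholds, parental peaks kept, 50% coverage, merging within 5 kb, a gene-end window of 3 kb, lists of equal length, a call in either replicate, and each replicate left out. Under each alternative the classes were formed anew. Overlap and class code was tested on 3000 simulated regions. The number of regions found in each class equalled the number made, and 100% of the checks passed. The class of each single region was not compared. Scripts ran in Python 3.11.15 with pandas 2.3.3, numpy 2.4.6 and scipy 1.17.1, and figures were drawn with matplotlib 3.10.9.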

Additional observations from a re-analysis of the deposited data

Results flagged for a closer look

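The change from DMSO to DNMT1i went one way in both RFTSdel replicates and the other way in UHRF1KO for 4 of 25 list measures. In each case the difference was not tested, and the lines differ in batch. The share of peaks on chromosome 19 moved from 8.24% to 7.13% and from 8.02% to 7.78% in RFTSdel and from 7.60% to 10.1% in UHRF1KO, a difference between the changes of 3.18 percentage points. In the controls it moved from 8.86% to 9.20% (NTC) and from 10.6% to 9.14% (WT). The median fold enrichment of a list moved from 4.72 to 4.04 and from 4.67 to 3.95 in RFTSdel and from 3.80 to 4.10 in UHRF1KO, a difference of 0.996. In the controls it moved as in UHRF1KO, from 3.77 to 4.07 (NTC) and from 3.85 to 4.18 (WT).

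Imprinted genes with a gene-end peak moved from 30.2% to 32.6% and from 37.2% to 44.2% of the list in RFTSdel and from 46.5% to 20.9% in UHRF1KO, a difference of −30.2 points. The controls moved from 53.5% to 27.9% (NTC) and from 48.8% to 27.9% (WT). Potassium channel genes moved from 17.9% to 32.6% and from 17.9% to 36.8% in RFTSdel and from 32.6% to 18.9% in UHRF1KO, a difference of −30.5 points. The controls moved from 35.8% to 36.8% (NTC) and from 33.7% to 31.6% (WT). Over all protein-coding genes the share moved from 45.1% to 29.2% and from 47.7% to 41.4% in RFTSdel and from 53.8% to 15.8% in UHRF1KO. The fall in UHRF1KO was thus larger over all genes than in either list. The RFTSdel shares rose in both lists and fell over all genes. Over the same step the UHRF1KO list shortened from 32523 to 4640 peaks and the RFTSdel lists from 12240 to 7559 and from 14020 to 11138.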

How the results depend on the processing

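Of 101 values recomputed, 42 stayed within the spread or within 1.5 times, 58 moved and 1 reversed. The causes of the moves were not tested. RFTSdel-only regions outnumbered UHRF1KO-only regions in 9 of 10 alternatives (not with equal lists), RFTSdel-only genes outnumbered UHRF1KO-only genes in 9 of 9, and the gene-end share was larger for RFTSdel-only regions in 10 of 11 (not at −log10 q 4). RFTSdel-only regions (4191) numbered 730 at −log10 q 4, 2058 at fold 4, 1845 with equal lists, 9186 with either replicate and 5284 to 8216 without a replicate. UHRF1KO-only regions (1493) numbered 856 at −log10 q 2, 226 at 4, 2680 with equal lists and 1704 to 2364 without a replicate. Shared regions (2121) numbered 784 at −log10 q 2, 56 at 4, 725 at fold 4, 1090 with equal lists and 774 with 50% coverage. The overlapping share of UHRF1KO peaks (44.7%) was 46.8% with parental peaks kept, 36.2% and 14.4% at −log10 q 2 and 4, 26.6% at fold 4, 23.4% with equal lists, 34.9% with 50% coverage, 67.8% with either replicate and 49.1% to 63.3% without a replicate. That of RFTSdel peaks (32.6%) was, in the same order, 35.5%, 19.8%, 7.12%, 25.7%, 36.6%, 20.7%, 25.5% and 26.2% to 30.1%. With equal lists the order of these 2 shares turned. The difference in gene-end share (7.87 points) was −9.08 at −log10 q 4, 12.8 with equal lists and 5.71 with a window of 3 kb. The share of RFTSdel-only regions in UHRF1KO DMSO (86.5%) was 79.6% and 44.9% at −log10 q 2 and 4, 59.4% at fold 4, 92.1% with equal lists, 68.9% with either replicate and 72.3% to 76.5% without a replicate. The share of UHRF1KO-only regions in RFTSdel DMSO (21.2%) was 32.0% and 67.9% at −log10 q 2 and 4, 26.6% at fold 4, 31.1% with equal lists and 21.9% to 32.9% without a replicate. RFTSdel-only genes (3424) numbered 538 at −log10 q 4, 1636 at fold 4, 1489 with equal lists, 6138 with either replicate and 3840 to 5722 without a replicate. UHRF1KO-only genes (512) numbered 201, 1391 with equal lists and 624 to 1178 without a replicate, and genes in both (1873) 713 and 63 at −log10 q 2 and 4, 633 at fold 4 and 975 with equal lists. No paired analysis was possible because UHRF1KO has a single library and no test was run. Unknown depth limits every absence of a call: a region without a peak may lie just under the threshold.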
